A study of Drosophila melanogaster with 4 samples.

Results

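Single-summit intergenic peaks 1 to 10 kb from a gene start made up 486 of the 7909 lines (6.14%) of the exex-GFP peak list kept by the submitters' test of irreproducible discovery rate (IDR). A line was a member if its called region appeared once in the list and its summit lay over 1000 and up to 10000 bp from the nearest protein-coding transcription start site (TSS) and outside every protein-coding gene body. Within the IDR list only position and the single summit chose the members, with no further use of signal, replicates or sequence. In all 580 summits met the positional limits, and 94 of them were left out because their region held a further summit, among them the strongest summit of the list, upstream of exex. All 4 libraries came from whole Drosophila melanogaster embryos of 6 to 24 h of a transgenic line that stably expresses exex with GFP fused to its C-terminus, precipitated with an anti-GFP antibody after sonication to fragments between 200 and 800 bp. They are biological replicates of 1 group, with no second genotype or condition, and the possible control that the labels name was not analysed here. Chromatin of every embryonic cell type was pooled, so the cells in which a region was bound are unknown. The source label names the strain as exex, with an insertion targeting D. melanogaster exex. It does not say where in the genome the transgene lies or in how many copies. Read depth is unknown, because the peak lists hold no read counts.

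exex is the fly counterpart of HB9, a homeodomain transcription factor that motor neurons with ventral targets need for their identity, and it also acts in other embryonic tissues. Homeodomain proteins of its class recognise short AT-rich sequences with the core TAATTA. Sequence between genes holds many of the enhancers from which such factors act, next to insulators and to the starts of non-coding RNAs, and an enhancer need not act on the gene closest to it.

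Short stretches under strong summits show what the members look like as sequence. Each is the dm6 plus strand from 100 bp before to 100 bp after the summit, from the RefSeq genome, and capitals mark CTTATC (which contains GATA on the other strand) or TAATTA on either strand. The 3 strongest members with CTTATC, leaving out 1 chromosome arm whose sequence is not shown, were those nearest to Tim17b2 (chr2L:15490189-15490389), Ugt37D1 (chr2L:16801665-16801865) and Muc18B (chrX:19216711-19216911), each with 2 copies.
Tim17b2: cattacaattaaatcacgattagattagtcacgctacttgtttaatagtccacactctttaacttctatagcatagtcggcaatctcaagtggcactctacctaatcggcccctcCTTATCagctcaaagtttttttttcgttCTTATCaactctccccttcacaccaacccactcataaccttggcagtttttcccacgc
Ugt37D1: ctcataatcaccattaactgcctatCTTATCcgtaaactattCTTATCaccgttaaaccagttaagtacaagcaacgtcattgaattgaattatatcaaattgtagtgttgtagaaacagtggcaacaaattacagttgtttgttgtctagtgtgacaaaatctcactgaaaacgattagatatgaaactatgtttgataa
Muc18B: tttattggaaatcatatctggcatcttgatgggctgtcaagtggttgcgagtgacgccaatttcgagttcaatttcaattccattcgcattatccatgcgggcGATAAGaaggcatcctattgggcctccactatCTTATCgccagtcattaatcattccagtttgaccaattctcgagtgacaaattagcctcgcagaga
The 3 strongest members with TAATTA, leaving out the same arm, were those nearest to exex (chr3L:7951974-7952174), CG31436 (chr3R:25306005-25306205) and CG8206 (chrX:15740448-15740648), with 2, 1 and 1 copies.
exex: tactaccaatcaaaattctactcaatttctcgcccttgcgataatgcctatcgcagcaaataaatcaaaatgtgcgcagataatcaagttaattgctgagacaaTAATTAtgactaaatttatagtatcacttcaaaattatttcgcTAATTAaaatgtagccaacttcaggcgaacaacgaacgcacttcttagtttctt
CG31436: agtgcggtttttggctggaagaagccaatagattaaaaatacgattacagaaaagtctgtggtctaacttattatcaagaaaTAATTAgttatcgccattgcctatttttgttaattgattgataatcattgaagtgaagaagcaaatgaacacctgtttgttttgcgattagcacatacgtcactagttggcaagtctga
CG8206: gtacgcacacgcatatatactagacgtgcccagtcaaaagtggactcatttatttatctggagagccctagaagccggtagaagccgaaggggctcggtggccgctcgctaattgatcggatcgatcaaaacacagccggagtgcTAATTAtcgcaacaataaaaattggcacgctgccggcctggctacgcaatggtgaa
The 2 strongest members with neither sequence, again without that arm, were those nearest to CG4004 (chrX:12751265-12751465) and Npc2e (chr3R:10054428-10054628).
CG4004: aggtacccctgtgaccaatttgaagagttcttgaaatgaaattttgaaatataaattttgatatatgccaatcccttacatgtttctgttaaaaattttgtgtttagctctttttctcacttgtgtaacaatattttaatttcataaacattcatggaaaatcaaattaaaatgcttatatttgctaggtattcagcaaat
Npc2e: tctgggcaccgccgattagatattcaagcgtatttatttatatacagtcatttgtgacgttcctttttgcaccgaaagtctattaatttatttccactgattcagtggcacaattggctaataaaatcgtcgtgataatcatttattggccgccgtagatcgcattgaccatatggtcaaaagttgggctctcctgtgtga

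The strongest member lay just behind exex itself. Its called region, chr3L:7951543-7952874, had its summit 511 bp past the annotated 3' end of exex and 3888 bp downstream of the exex TSS, and its signal, the authors' score for a peak, was 13795. It ranked 2 in the IDR list, and its rank was also 2 in every replicate list. Its window held 2 copies of TAATTA and none of CTTATC. The next member, downstream of CG4004 and inside the non-coding gene lncRNA:Vinr, had a signal of 3675, and it ranked 141, 22, 50 and 35 in replicates 1 to 4. The gap of 19024 bp between exex and RNaseX25 held 4 further members, with signals of 509 to 762. Those were overlapped by high peaks of all 4 replicates, and none of the 4 held TAATTA or CTTATC. The line carries an exex transgene of unknown site and copy number. Extra copies of the locus and binding there cannot be told apart for these members.

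Most of the very strongest other members sat behind the 3' ends of genes. Among the 20 of highest signal, 15 lay downstream of the gene with the nearest TSS, and the 11 strongest all did. The share was lower in larger sets, at 26 of the 50 strongest and 42.6% of the 122 strongest, against 39.5% of all members. Behind Tim17b2, a subunit of the mitochondrial import machinery, the summit lay 4744 bp past the gene and ranked 42, 123, 102 and 72 in replicates 1 to 4. The summit between Npc2e and Npc2d, which encode small sterol-binding proteins of the Niemann-Pick type C2 family, ranked 57, 101, 67 and 135. The summit behind Ugt37D1, a UDP-glycosyltransferase gene, ranked 85, 161, 119 and 182. Behind Muc18B, a mucin gene, the ranks were 128, 208, 186 and 670. The 354 bp gap between Vang, a planar cell polarity gene, and Pgm2a, of the phosphoglucomutase family, held a summit ranked 66, 68, 51 and 228. A summit in the 203 bp between CG11857 and Kdsr, a sphingolipid synthesis gene, ranked 202, 300, 213 and 344. Replicate 4 gave the lowest of the 4 places to each of these except the summit behind Tim17b2.

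The upstream members among the 20 flanked Inx2, Act5C, CG42710, CG7778 and eEF1gamma. Inx2 and its neighbour Inx7 are divergently transcribed genes of gap junction innexins, and the summit lay 1528 bp before the Inx2 TSS, ranked 264, 252, 325 and 220. Act5C, a cytoplasmic actin gene, had its summit 7558 bp before the TSS, ranked 269, 328, 246 and 443. The summit upstream of CG42710, in the 43144 bp gap that ends at SoxN, a Sox factor of the neural ectoderm, ranked 218, 233, 311 and 994. The summit before eEF1gamma, a translation elongation factor subunit, ranked 304, 511, 710 and 233. Other strong members lay behind Mdh1, malate dehydrogenase, Fic, an enzyme of protein AMPylation, CG3702, CG10321, CG8206, CG31436 and CG5214, whose gap reaches to pros, the homeodomain factor of differentiating neural cells. In number of ranks the replicates spread most for the member behind CG5214, at 406, 549, 304 and 1242, and as a ratio for the one behind CG10321, at 31, 44, 32 and 447. All 20 were overlapped by high peaks of every replicate. Of the 20, 10 held TAATTA and 12 held CTTATC, with 6 holding both and 4 neither. Over all members 21.6% held TAATTA and 33.5% CTTATC, and over all IDR summits 19.7% and 35.4%. Equally strong peaks outside the members were not counted. That the strongest members lay downstream was noticed after their values were seen, and over all members the difference was small: 21.9% of downstream and 17.3% of upstream members were among the 1977 IDR peaks of highest signal, a difference of 4.53 percentage points (Newcombe 95% interval -2.56 to 11.995). In the lists of the replicates taken on their own, 14, 10, 14 and 11 of the 20 strongest peaks that met the rule were downstream.

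**Figure D1:**
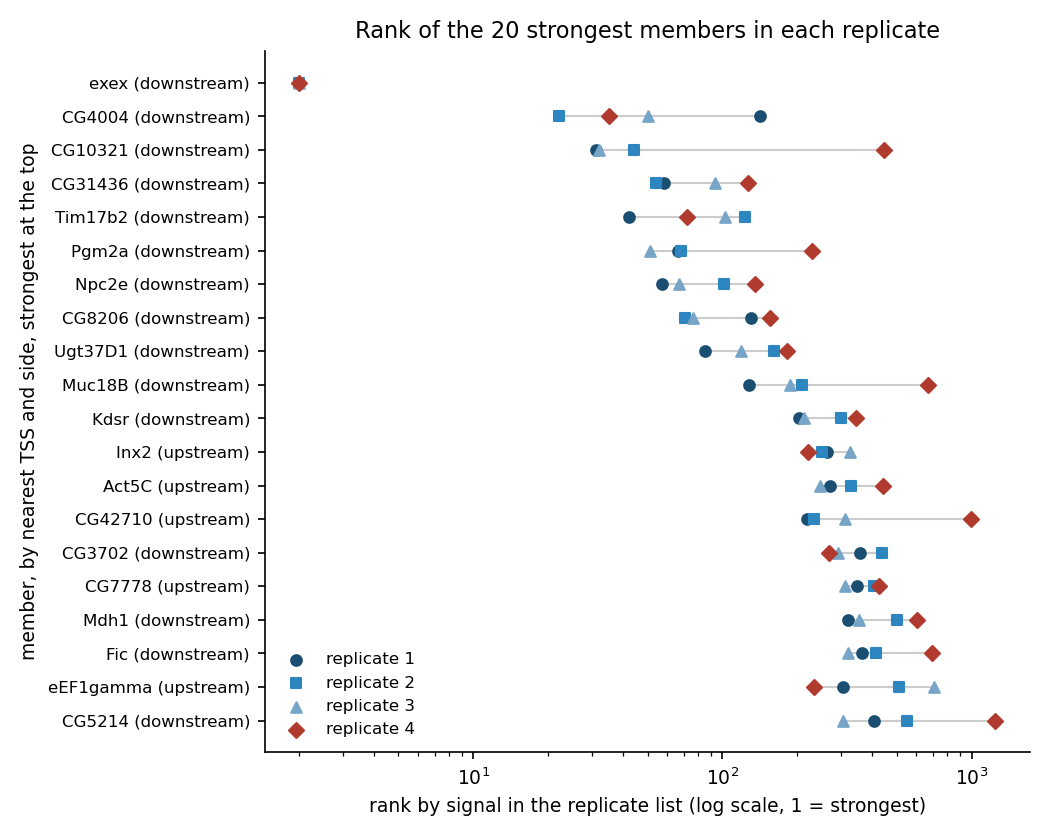
Ranks by signal (log axis, 1 strongest) of the 20 strongest members in the lists of replicates 1 to 4, each member named by its nearest TSS and side, with a grey line from the best to the worst rank. The member behind exex ranks 2 in every replicate, the widest spread on this log axis belongs to the member behind CG10321, at 31 to 447, and no member of the 20 falls past rank 1242.

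Members were spread over the arms in numbers of 98 on 2L, 96 on 2R, 106 on 3L, 112 on 3R, 72 on X and 2 on 4, or 24.0, 28.1, 25.5, 23.3, 24.0 and 14.6 for each Mb of sequence that met the same positional limits. That eligible sequence came to 19.6 Mb, so the members had a density of 24.8 per Mb. Single-summit intronic peaks in the same distance range had 65.2 per Mb of theirs, and proximal single-summit peaks, over 200 and up to 1000 bp from a TSS, had 82.0. The distance from the TSS had a median of 2476 bp, and the called regions a median width of 361.5 bp. Density fell with distance from the nearest TSS, taken on either side of it. It was 49.7 members per Mb up to 2000 bp, 25.2 from there to 5000 bp and 12.3 from there to 10000 bp. The median signal was 426, 421 and 424 in the same order. At the near limit, the 49 members up to 1200 bp from a TSS had a median signal of 437, and the 53 single-summit intergenic peaks just short of it, at over 800 bp, had 412. At the far limit, the 12 members over 9000 bp away had a median of 343, and the 14 such peaks past it, up to 11000 bp away, had 503.

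The 294 upstream members were 60.5% of all (Wilson 95% interval 56.1 to 64.7), and 62.3% of eligible bases were upstream. The 192 downstream members were 39.5% (35.3 to 43.9). Per Mb there were 24.1 upstream and 26.0 downstream members. The call depends on what decides the nearest gene: with the closest gene edge in place of the closest TSS, 46.9% were upstream. Intervals here and elsewhere cover counting error only, and members of 1 gap are not independent of each other.

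Members differed more by the orientation of their flanking genes. Convergent gaps, between the 3' ends of a pair of genes, held 124 members, 25.5% of all on 20.5% of eligible bases. Tandem gaps held 215, 44.2% on 51.4% of bases, and divergent gaps held 147, 30.2% on 27.7%. Densities were 30.9 per Mb in convergent gaps, 21.3 in tandem and 27.1 in divergent gaps. Convergent members also had the highest median signal, 459, against 414 in tandem and 400 in divergent gaps, and 66.9% of them (58.3 to 74.6), against 53.0% (46.4 to 59.6) and 56.5% (48.4 to 64.2), were overlapped by high peaks of all 4 replicates. These differences between gap types were not tested.

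Members were densest close behind the 3' ends of genes. Where the closest gene edge was a 3' end, density was 87.6 members per Mb within 500 bp of it, on 117 members. It was 37.3 per Mb from there to 1000 bp, 20.2 from there to 3000 bp and 10.4 beyond 3000 bp. Where the closest edge was a 5' end, which the rule keeps over 1000 bp away, density was 34.3 per Mb up to 3000 bp and 13.7 beyond. The 117 members within 500 bp of a 3' end had a median signal of 492, against 425 over all members. Among downstream members 58.3% lay within 1000 bp of a gene edge, and among upstream members 15.99%. Short gaps go with this: density was 182 per Mb in gaps of up to 1000 bp, with 35 members on 0.192 Mb, and 5.89 per Mb in gaps over 50000 bp. Edge, gap length and orientation cannot be told apart here, since the eligible bases of a short gap all lie near 3' ends. Distance from the TSS was not separated from these either.

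**Figure D2:**
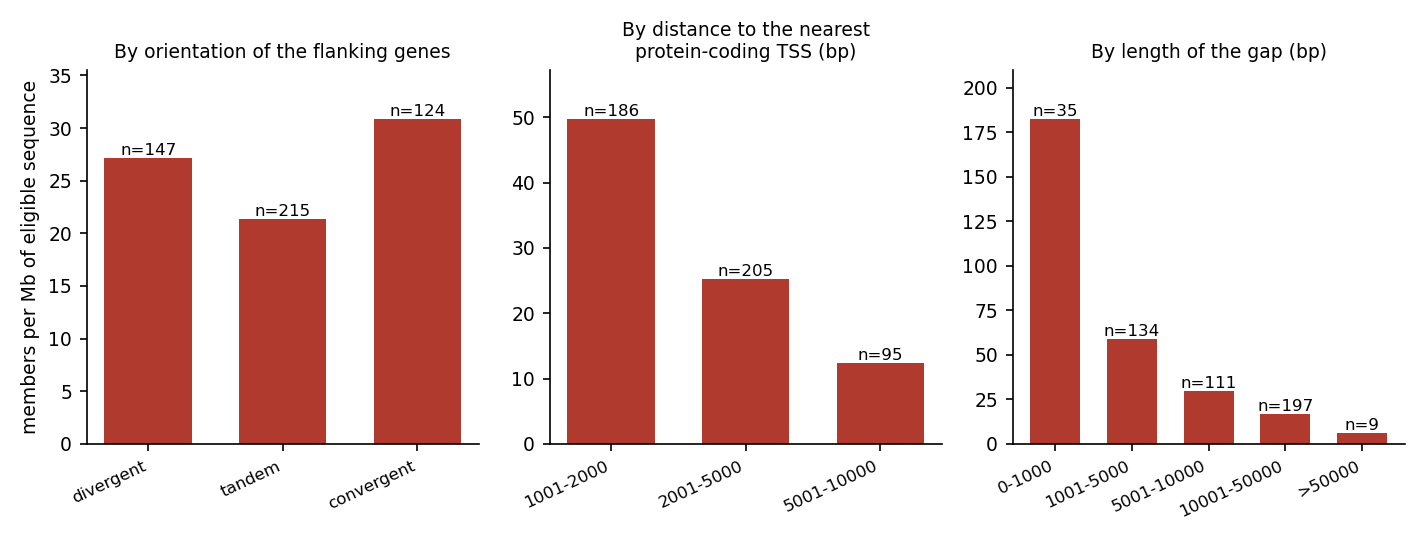
Members per Mb of eligible sequence by orientation of the flanking genes, by distance to the nearest protein-coding TSS and by length of the gap, each panel with its own axis from 0 and the number of members on each bar. Convergent gaps have 30.9 per Mb, and density falls from 49.7 to 12.3 per Mb with distance from the TSS and from 182 to 5.89 per Mb with gap length.

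The members lay in 345 gaps between neighbouring protein-coding genes. Of these, 265 held 1 member, and 15 held 4 or more, 71 members in all. The largest group, 7 members, lay in the 37097 bp between RFeSP, a subunit of mitochondrial complex III, and chinmo, a zinc-finger factor of neuronal temporal identity. Of the 7, 6 were closest to chinmo, at 1544 to 9576 bp before its TSS, with IDR ranks of 485 to 3727, and 5 of the 7 were overlapped by high peaks in all 4 replicates. The 20400 bp between mtSSB and tara, a transcriptional co-regulator gene, held 6, the strongest 3158 bp before tara at IDR rank 450. Gaps with 5 members lay before foxo, the forkhead factor of insulin signalling, with ranks from 1131 on, and between CG16721 and Act5C, CG4004 and Paics, CG7484 and Crtc (a CREB co-activator), and CG44362 and CG7560. Gaps with 4 lay between CG17375 and sens-2, noc and CG33648, CG1662 and Bcat, NKCC and Nmdar1, scyl and Dyro, CG1888 and Or45b, and lola and psq. Neighbouring members can rest on 1 peak of a replicate: 43 of 486 shared an overlapping replicate peak with another member in at least 1 replicate, as did those at 7593 and 7795 bp before chinmo in all 4. Another IDR summit lay within 1000 bp of 26.95% of members and within 5000 bp of 72.8%.

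Of the genes in 11 lists, 50 flanked a member, with grn in 2 lists counted once, where 659 of 13945 protein-coding genes did so, a background of 4.73%. Motor neuron factors did so at 3 of 12: grn, Oli and exex, the gene carried by the transgene. The member before grn, a GATA factor that also acts in motor neurons, lay 2283 bp from its TSS at IDR rank 883, and that of Oli, a bHLH factor, lay 30871 bp from the gene and closer to CG7094. Among the 6 genes of GATA factors and their cofactor, grn and srp flanked a member, that of srp, the GATA factor of blood, fat body and endoderm, 1071 bp before the TSS at rank 4638. Of 48 other homeobox genes 10 did so, or 20.8%, led by al, zfh2, a zinc-finger homeodomain factor, and cad, a factor of the posterior body and the gut, at ranks 2451, 2939 and 3270. By the gene of the nearest TSS alone 6 of the 48 had a member, which leaves out cad, B-H2, repo and ara. The member before al, a factor of appendage tips, lay 6379 bp away. None of the 26 axon guidance and adhesion genes flanked a member. Gut enzyme and transport genes did so at 9 of 48, or 18.8%, and at 5 by the nearest TSS alone. The 9 were thetaTry and alphaTry at rank 503, Eglp1 and Eglp2, of the aquaporin family, at rank 1388, Jon25Bii and Jon25Biii at rank 2837, and Amy-p, Jon99Fii and Jon44E further down. Where both neighbours of a member are in the list, the member counts for both.

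Ribosomal protein genes flanked a member at 6 of 92 (6.52%), with RpS23 at rank 569 and RpS15Aa at rank 1470, chemoreceptors at 11 of 179 (6.15%), led by Gr39b at rank 588, and cuticle and Osiris genes at 3 of 118 (2.54%). Signalling genes did so at 4 of 42 (9.52%), with bnl, the FGF of tracheal branching, at rank 1541, and ecdysone and nuclear receptor genes at 2 of 20. Among 13 apoptosis genes 1 (7.69%) flanked a member: Diap1, an inhibitor of caspases, 861 bp from it at rank 862. The nearest TSS of that member was that of CG5895. The length of the gaps was not taken into account in these counts. With the gene of the nearest TSS alone, 26 list genes had a member. The count was then 1 for ribosomal protein genes, 6 for chemoreceptors, 2 for cuticle and Osiris genes and 3 for signalling genes. It was 0 for apoptosis genes and 0 for ecdysone and nuclear receptor genes.

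Non-coding genes lay at a larger share of members than of sequence. Inside a non-coding gene or within 1000 bp of a non-coding TSS lay 135 members, or 27.8% (24.0 to 31.9), against 13.0% of eligible bases. The members inside such a gene were 60, or 12.3% (9.71 to 15.6), against 7.43% of bases. Long non-coding or antisense RNAs and microRNAs, which the annotation classes as ncRNA, accounted for 108 members and tRNA genes for 17, with 5 at pseudogenes and 3 each at snoRNA and snRNA genes. Among microRNA genes, 12 members lay at mir-87, mir-92b, mir-277, mir-279, mir-282, mir-375, mir-14 and mir-308. At mir-375 there were 3 members, 372 to 750 bp from its start, and at mir-279 a member 197 bp away at rank 3193. The strongest tRNA member, at rank 571, lay 391 and 761 bp from a pair of tRNA:Ala genes near CG10939. With the TSSs and bodies of all annotated genes in the rule, 389 peaks would have been members. Annotated transposable elements covered 7.89% of eligible bases and held 1 of 486 summits, in an Ivk element near CG2201. How well reads map to such repeats was not examined, and the cause of the low count was not tested.

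Replicate support of the members, which is defined here by signal rank, went with their signal. For each replicate, its 7909 highest-signal peaks were taken, and an IDR peak counted as supported if at least 1 bp was overlapped. All 4 replicates supported 280 members (57.6%, Wilson 95% interval 53.2 to 61.9), where 65.3% of all IDR peaks were so supported. A further 115 had 3 replicates, 71 had 2, 19 had 1 and 1 had none, that one being a summit 2082 bp before ci on chromosome 4, which appeared in 1 of the 4 complete lists. In the complete lists of 30000, 455 members appeared in all 4. Support in all 4 was found for 99.2% of the 122 strongest members, for 78.5% and 41.3% of the next 121 and 121, and for 11.5% of the 122 weakest. Support asks for a place among the highest-signal peaks of a replicate, so its fall with signal was largely set by that definition. It does not show that the weakest members were absent from the replicates. The list was made from these replicates, so this is not an independent measure of binding.

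Replicates 1 to 4 supported 87.9%, 87.7%, 86.0% and 73.0% of the members, a mean of 83.6% ± 7.11 (SD, n = 4). The median shift between the summits of a member and of its replicate peak was 18, 17, 16 and 34 bp. Replicate 4 stood apart in both, and it had 6947 peaks with a q-value under 0.01 in its list, against 12935, 11893 and 13846 in replicates 1 to 3. Members had support in all 4 less often than intronic peaks, 57.6% against 61.2%, a difference of -3.597 percentage points (interval -8.53 to 1.25, Fisher's exact test, two-sided, adjusted p = 0.36). Against proximal peaks, at 62.6%, the difference was -4.9997 points (-9.99 to -0.083, Fisher's exact test, adjusted p = 0.266). Neither passed the threshold of 0.05 after Benjamini-Hochberg adjustment over 16 comparisons of shares, nor did either without replicate 4, at -5.66 and -2.24 points (Fisher's exact test, adjusted p = 0.0808 and 0.642). The direction depended on how support was counted. With 50% reciprocal overlap the differences were 0.93 and 1.42 points, and with summits within 100 bp -5.48 and -2.94. With complete lists they were -0.22 and 1.09, and with q under 0.01, added after seeing the data, 1.52 and -5.57. Over the replicates, support was lower than in intronic peaks by 2.08 ± 1.95 points (SD, n = 4), in 3 of 4 replicates (exact sign-flip permutation p = 0.25). Since 4 replicates cannot give a p under 0.125, the replicate values are given as descriptions.

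**Figure D3:**
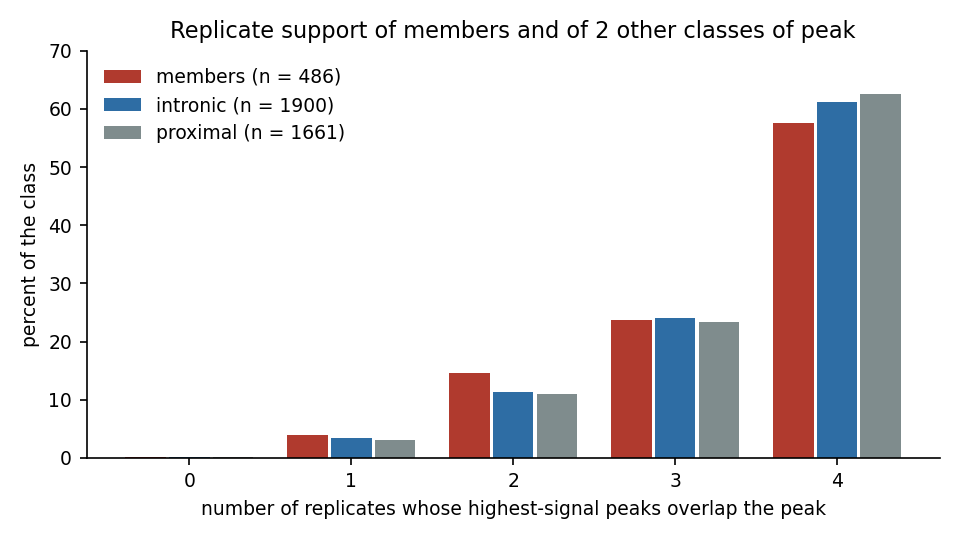
Percent of members, of intronic peaks 1 to 10 kb from a TSS and of proximal peaks by how many replicates, 0 to 4, supported them with a high peak. Support by all 4 was found for 57.6% of members, 61.2% of intronic and 62.6% of proximal peaks, and under 5% of each class had fewer than 2 supporting replicates.

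Signal placed the members close to the other classes. Its median was 425 for members, from 230 to 13795, against 440 in intronic peaks, 449 in proximal peaks and 453 over the IDR list. Among the 1977 IDR peaks of highest signal were 93 members, 19.1%, against 22.6% of intronic peaks (difference -3.44 points, -7.23 to 0.712, Fisher's exact test, adjusted p = 0.306). Of proximal peaks 24.3% were there (difference -5.13 points, -9.01 to -0.891, Fisher's exact test, adjusted p = 0.16). The lists of the replicates on their own held 562, 554, 444 and 507 peaks that met the rule, a mean of 516.75 ± 54.2 (SD, n = 4), and 58.9% to 61.5% of those were upstream.

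CTTATC marked the summits of the members. It lay within 100 bp of 163 members, or 33.5% (29.5 to 37.9), against 56 of the flanking windows (11.5%, 8.98 to 14.7) centred 1000 bp farther from the nearest TSS. The flank was empty of it at 143 members that held it, and 36 had it at the flank alone (exact McNemar test, two-sided, adjusted p = 1.62e-15 over 6 sequences). CTTATC was taken up because an earlier scan of these same peaks had ranked it highest, so this excess is not independent evidence. In the replicates' own lists the summit exceeded the flank by 18.5 ± 1.59 percentage points (SD, n = 4), in 4 of 4. At 100 members it lay within 50 bp. Over 57 bp windows placed every 50 bp, it was found at 64 members at the summit, at 61 and 54 at 50 bp to either side, and at 9 to 21 in windows 500 bp or more away. The longer word GATAAG is CTTATC on the other strand, and its core GATAA, searched after the data were seen, gave 63.6% of summits against 40.5% of flanks (exact McNemar test, adjusted p = 6.19e-13).

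TAATTA, the homeodomain core, lay within 100 bp of 105 members, or 21.6% (18.2 to 25.5), against 80 of the flanks (16.5%, 13.4 to 20.02). It was at the summit alone in 83 members and at the flank alone in 58 (exact McNemar test, two-sided, p = 0.0429, adjusted p = 0.129), which did not pass. The call turned on the choice of window and flank. With 50 bp on each side the difference was 6.17 points and passed (exact McNemar test, adjusted p = 0.00618), with the flank 1000 bp towards the TSS it was 9.88 points (exact McNemar test, adjusted p = 0.000141), and with a flank 2000 bp away it was 8.02 points (exact McNemar test, adjusted p = 0.00454). Over the replicates the summit exceeded the flank by 4.02 ± 1.62 points (SD, n = 4), in 4 of 4. In the narrow windows it was found at 40 members at the summit, 37 at 50 bp beyond it and 24 at 50 bp towards the TSS, against 11 to 26 in those 500 bp or more away. Base composition moved with position: median GC content was 37.8% at the summits and 41.8% at the flanks, and its part in either result was not tested.

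**Figure D4:**
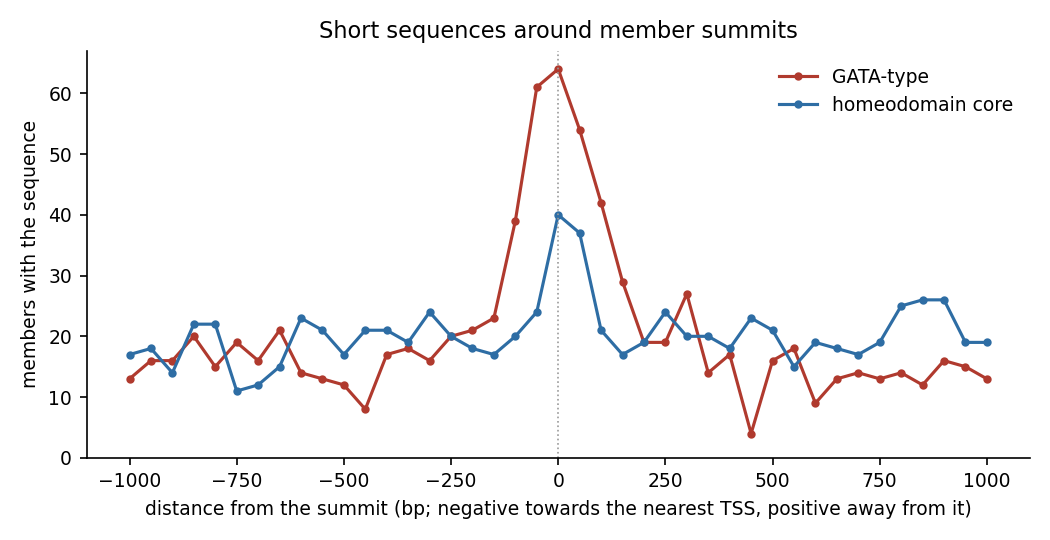
Number of the 486 members with a GATA-type sequence (CTTATC) or the homeodomain core (TAATTA), on either strand, in 57 bp windows every 50 bp from 1000 bp on the side of the nearest TSS (negative) to 1000 bp on the far side (positive). CTTATC reaches 64 members at the summit and TAATTA 40, against 9 to 21 and 11 to 26 members in windows at least 500 bp away.

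CTTATC was less frequent in members than in intronic peaks of the same distance range. Of members 33.5% held it and of intronic peaks 41.7%, a difference of -8.15 percentage points (-12.8 to -3.31, Fisher's exact test, two-sided, adjusted p = 0.0172). In the replicates' own lists the differences were -10.6, -8.97, -10.1 and -11.8 points, a mean of -10.4 ± 1.153 (SD, n = 4), lower in 4 of 4 replicates (exact sign-flip permutation p = 0.125, the smallest that 4 replicates can give). Over the IDR list 35.4% of summits held it, so the members lay close to that background. The call was lost with 50 bp on each side, at -6.16 points (Fisher's exact test, adjusted p = 0.0818). It was also lost without replicate 4, at -8.69 points (Fisher's exact test, adjusted p = 0.0527), though there the difference was no smaller than in the main result. Without replicate 1, 2 or 3 it passed, at -10.8, -10.2 and -10.9 points (Fisher's exact test, adjusted p = 0.0114, 0.0252 and 0.0126). GATAA gave 63.6% against 71.5% (Fisher's exact test, adjusted p = 0.0139). Against proximal peaks, at 36.9%, the difference of -3.37 points did not pass (-8.05 to 1.52, Fisher's exact test, adjusted p = 0.36), and it was lower in 4 of 4 replicates, at -4.11 ± 1.599 points (SD, n = 4).

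No other searched sequence passed the test against either class. TAATTA was at 21.6% of members, against 20% of intronic peaks (Fisher's exact test, adjusted p = 0.718) and 18.3% of proximal peaks (Fisher's exact test, adjusted p = 0.306), and at 19.7% of all IDR summits. GAGAG, which the GAGA factor binds, was at 20.4% of members, against 20.9% of intronic and 24.3% of proximal peaks. CAGGTA, the core of the Zelda site, was at 3.70%, against 3.63% and 4.21%. TGANTCA, the AP-1 sequence, was at 5.76%, against 7.05% and 6.38%, and TATCGATA, the DRE sequence, at 0.617%, against 0.474% and 0.843%. The smallest adjusted p among these 4 sequences was 0.306 (Fisher's exact test). In the replicates' own lists GAGAG was lower than in proximal peaks by a mean difference of -4.18 ± 1.60 points (SD, n = 4), in 4 of 4. TGANTCA was also lower in 4 of 4, at -2.22 ± 0.651 points against intronic and -1.89 ± 0.567 against proximal peaks, and TAATTA was higher than in proximal peaks in 4 of 4, at 1.05 ± 0.997 (SD, n = 4). Each of these had an exact sign-flip permutation p of 0.125, as CTTATC did. All 6 were searched on both strands, GAGAG can overlap itself, and a match is only a match of letters.

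**Figure D5:**
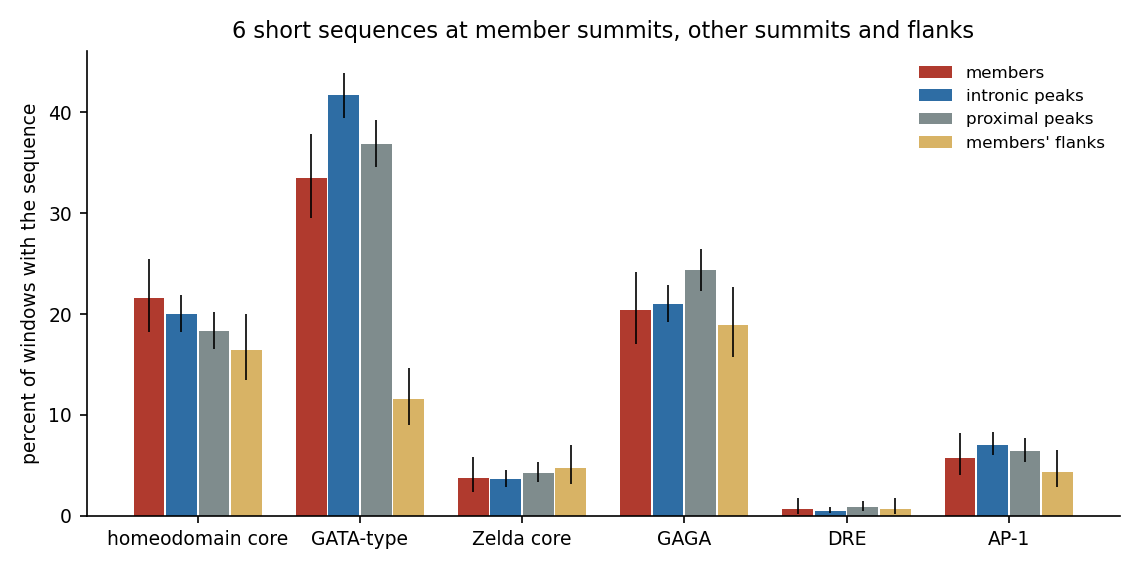
Percent of 201 bp windows with each of 6 short sequences at the summits of members, of intronic peaks and of proximal peaks, and at the members' flanks 1000 bp away, with Wilson 95% intervals as bars. The GATA-type sequence (CTTATC) is at 33.5% of members, 41.7% of intronic peaks, 36.9% of proximal peaks and 11.5% of flanks, and the other sequences differ less.

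Most members held neither of the main sequences. Both CTTATC and TAATTA lay at 41 members, CTTATC alone at 122, TAATTA alone at 64 and neither at 259 (53.3%), and 172 held none of the 6. Over the IDR list 35.4% of summits held CTTATC and 19.7% TAATTA. The share with neither was not counted there, so it is not known to be particular to the members. In 4 groups of near equal size from the strongest members to the weakest, CTTATC was at 41.8%, 32.2%, 30.6% and 29.5%, and TAATTA at 28.7%, 15.7%, 24.8% and 17.2%. CTTATC lay at 34.4% of upstream and 32.3% of downstream members, and TAATTA at 21.4% and 21.9%. By gap type, CTTATC was at 39.5% of tandem (33.2 to 46.2), 32.3% of convergent (24.7 to 40.9) and 25.9% of divergent members (19.5 to 33.5), with no test of the difference, and TAATTA at 21.4%, 19.4% and 23.8%.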

How the data were processed

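Peak lists of 4 biological replicates, their pool and the IDR filter were deposited on dm6, but no label or header names the aligner, the caller or the IDR cutoff. The authors' signal value is a score, used to rank peaks of the same list. The deposited q-value is on a −log10 scale and was used for counts of q under 0.01. The deposited summit offset, in bp from the region's start, gave the position of each summit. The annotation was Ensembl release 115 (BDGP 6.54), in which 13945 genes were protein-coding, and sequence came from the RefSeq genome of the same build. Eligible sequence was every base that met the positional limits.

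Shares were compared with Fisher's exact test and summits with flanks by the exact McNemar test, both two-sided, adjusted by the Benjamini-Hochberg method and read at 0.05, and with exact sign-flip tests over replicates. These tests compare peaks, not animals. Shares have 95% Wilson intervals and differences Newcombe intervals. Fisher's test with the adjustment was checked on simulated draws that were independent of each other, unlike members of the same gap. The McNemar test was not checked on simulated data, nor was the sign-flip test beyond a set of equal differences. Named genes were the flanking genes of the 20 strongest members, gaps with 4 or more members, exex, and up to 3 genes per list with the strongest members, with others named after their values were seen. The members and lists were chosen with earlier results of these data known. Without a replicate, the peaks supported by the other 3 were used. Software was scipy 1.17.1, pandas 2.3.3, numpy 2.4.6 and, for plots, matplotlib 3.10.9 under Python 3.11.15.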

Additional observations from a re-analysis of the deposited data

Results flagged for a closer look

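Replicate 4 stood apart from the other 3 in 3 measures, where chance sets a sample apart in about 1 of 20 groups of 4 and 22 measures were examined. It supported 73.05% of the members, against 86.0% to 87.9% in replicates 1 to 3. It supported 72.32% of the intronic peaks, against 89.7% to 90.8%. The median summit shift of the members was 34 bp in replicate 4, against 16 to 18 bp in the others. Its part in the support of the members was not tested beyond leaving it out.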

How the results depend on the processing

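No paired analysis was possible because the 4 replicates form 1 group, with no second group whose replicates they could be paired with. The members numbered 300 with a near limit of 2000 bp and 222 in the upper part of the list by signal. The difference in support turned to 0.93 points against intronic and 1.42 against proximal peaks with 50% reciprocal overlap, to 1.09 against proximal peaks with complete lists and to 1.52 against intronic peaks with q under 0.01, a setting added after seeing the data. For signal, the share among the highest 790 of the list differed by 0.17 points from intronic peaks. CTTATC against intronic peaks was -6.16 points with 50 bp on each side, and -10.9 to -8.69 when a replicate was left out, and TAATTA against the flank 6.17 with 50 bp, 9.88 towards the TSS and 8.02 at 2000 bp. The upstream share was 46.9% by gene edge, 57.2% in the upper part of the list, 56% over 2000 bp and 57.7% to 58.3% when a replicate was left out. The non-coding share was 22.6% within 500 bp, and 26 list genes were counted by nearest TSS alone, a setting also added after seeing the data. Among sequences that never passed, the summit against the flank turned for TGANTCA (-0.41 with 50 bp, down to -0.34 and up to 0.86 without a replicate), GAGAG (-3.50 towards the TSS, -1.85 at 2000 bp, -0.45 in the upper part, -2.01 to 0 without a replicate) and CAGGTA (1.35 in the upper part, -0.29 to 0.68 without a replicate). CTTATC against the flank passed under all 10 alternatives run, at 15.6 to 24.4 points. Among them was GATAA in its place, added after seeing the data. All use the peaks from which CTTATC was taken up, so they are not independent evidence. For the changed values the cause was not tested. The members numbered 389 with all annotated genes in the rule and 580 with shared regions. No other tested value changed its direction or crossed the threshold. Read depth is unknown and limits every statement on weak members.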
